A study of Mus musculus with 2 samples.

Results

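Smooth muscle actins and contractile genes were followed through 9 genes of the array: Acta2, Actg2, Actc1, Tagln, Myl9, Myh11, Cnn1, Tpm1 and Tpm2. Every probe that the array design names for 1 of them was taken, which gave 17 probes of the 41174 probes for transcripts. The RNA came from thymus of 6-month-old Pla2g10-Tg/+ mice and of their littermate controls, both on a C57BL/6 background, pooled from 4 mice per genotype. The transgene carries Pla2g10, the gene of a secreted phospholipase A2, and the sources used here do not give the promoter that drives it. Both pools were hybridised together on 2 two-colour arrays. The transgenic pool was red and the control pool green on array 1, and the dyes were exchanged on array 2.

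Smooth muscle cells contract when myosin pulls on actin filaments, after calcium and calmodulin have led to phosphorylation of the regulatory light chain of myosin. The actins, the myosin chains and the proteins that bind actin filaments are transcribed under serum response factor (SRF) and its partner myocardin, and high levels of them mark the contractile state of these cells. In the thymus they are known from the walls of blood vessels and from cells of the capsule and septa, while myofibroblasts and other mesenchymal cells also carry some of them, Acta2 and Tagln above all.

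Promoters are shown for the members in which the motif bound by SRF, the CArG box, was found, because SRF is the shared regulator of the family. The bases are the 250 upstream of the start in RefSeq's annotation of GRCm38.p6, where 6 of the 9 members had an entry. Capitals mark a CArG box, that is C and C, then a core of 6 bases of A or T, then G and G, either exact or with 1 core base that is G or C. The pattern reads the same on both strands and no other motif was searched. The windows lie at chr19:34255374-34255623 on the minus strand for Acta2, at chr2:114052876-114053125 on the minus strand for Actc1 and at chr2:156775214-156775463 on the plus strand for Myl9.
Acta2: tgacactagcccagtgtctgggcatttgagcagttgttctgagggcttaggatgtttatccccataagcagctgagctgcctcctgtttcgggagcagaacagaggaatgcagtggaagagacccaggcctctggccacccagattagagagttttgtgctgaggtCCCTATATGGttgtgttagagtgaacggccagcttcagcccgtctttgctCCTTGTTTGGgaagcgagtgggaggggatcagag
Actc1: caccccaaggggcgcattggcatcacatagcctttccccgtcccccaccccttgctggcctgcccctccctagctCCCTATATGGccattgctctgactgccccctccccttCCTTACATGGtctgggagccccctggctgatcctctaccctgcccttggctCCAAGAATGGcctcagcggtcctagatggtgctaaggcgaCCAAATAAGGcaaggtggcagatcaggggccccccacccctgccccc
Myl9: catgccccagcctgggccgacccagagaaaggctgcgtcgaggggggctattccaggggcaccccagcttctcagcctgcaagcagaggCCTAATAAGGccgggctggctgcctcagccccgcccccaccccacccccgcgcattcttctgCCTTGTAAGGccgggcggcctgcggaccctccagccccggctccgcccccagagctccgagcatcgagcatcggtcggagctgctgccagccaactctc
The Acta2 window held no exact box and 2 with 1 core base off, which began 84 and 34 bases before the start. The Actc1 window held 1 exact box, beginning 47 bases before the start, and 3 with 1 core base off, at 175, 138 and 87 bases. The Myl9 window held 1 exact box and 1 with 1 core base off, at 161 and 99 bases. The windows of Cnn1, Tpm1 and Tpm2 held neither form, and Actg2, Tagln and Myh11 had no entry. Of 32851 mouse promoters of the same length, 1.47% held an exact box and 8.59% an exact box or one with 1 core base off. A match describes these letters and is no evidence of binding.

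By the scanner software's own flag, the share of spots well above background on array 1 was 34.1% for transgenic and 29.0% for control RNA, and on array 2 it was 28.5% for transgenic and 33.2% for control RNA. Red was the brighter dye on both arrays: before normalization the transgenic signal was below the control signal at 8.35% of the tested probes on array 1 and at 97.5% on array 2. The only probe for Pla2g10 was well above background in 0 of 4 channels, with signals of 35.3 and 43.0 in the transgenic channels and 45.1 and 39.5 in the control channels, and the part of the gene that the transgene holds is not stated in the labels. The thymus label was borne out by Rag1, Dntt, Cd8b1 and Ptcra, genes of developing T cells, which were well above background in 4 of 4 channels. They belong to a list of 10 immature thymocyte markers, of which Rag2 was well above background in 0 channels. Foxn1, a marker of thymic epithelium, was likewise well above background in 0 channels. Ratios below are log2 of transgenic over control after loess normalization within each array, with an offset of 50 added to both channels, which shrinks the ratios of dim probes. A mean ± SD covers the 2 arrays, taken as a dye swap of the same pools, so the SD is technical and no test across mice was possible.

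In the transgenic thymus, after loess, 1 probe for each of the 3 actins Acta2, Actg2 and Actc1 was lower on both arrays. A second Acta2 probe was higher on both. Tagln was at -0.07 and -0.03 on arrays 1 and 2 and Myl9 was higher on both. Of all tested probes, 29.4% were lower and 27.5% higher on both arrays. With median centring only the first Acta2 probe of these kept its sign on both arrays. Myh11 and Cnn1, the myosin heavy chain and calponin of differentiated smooth muscle, were not measurable, nor was Tpm2. Tests were limited to probes that at least 1 genotype lit well above background on both arrays, which 12234 probes were. Of the 17 smooth muscle probes, 8 passed, from 6 genes, and all 8 were well above background in 4 of 4 channels. The other 9 probes were well above background in 0 channels for 7 probes and in 1 channel for 2 probes.

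None of the 8 tested probes differed at least 2-fold, meaning a mean log2 ratio of at least 1 in size with at least 0.5 on each array, a rule that 0.0327% of all tested probes passed. None reached 0.5 in size in the same direction on each array, against 0.351% of all tested probes. Below 0 on both arrays were 5 of the 8, and 29.4% of all tested probes were. Above 0 on both arrays were 2 of the 8, and 27.5% of all tested probes were. These 2 counts rested on loess: with median centring 1 probe was below 0 on both arrays and 0 above, and with no normalization within the arrays both counts were 0. The share of all tested probes was not counted under those settings. Before normalization the transgenic signal was below the control signal at 8.35% of all tested probes on array 1 and 97.5% on array 2. Most tested probes, members or not, thus had opposite signs on the arrays at that stage. The median over the 8 probes was -0.08, with -0.14 on array 1 and -0.03 on array 2, and the median over all tested probes was -0.01. Of all tested probes, 5% lay below -0.21 and 5% above 0.22. The SD between arrays had a median of 0.09 over the 8 probes and of 0.09 over all tested probes. Taken by the brightest probe of each gene, 5 of 6 genes were below 0 and the median was -0.19, against 4767 of 9396 tested genes below 0 and a median of -0.0023. With the mean over all tested probes of a gene, which takes in the second Acta2 probe, the median over the 6 genes was -0.11.

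**Figure D1:**
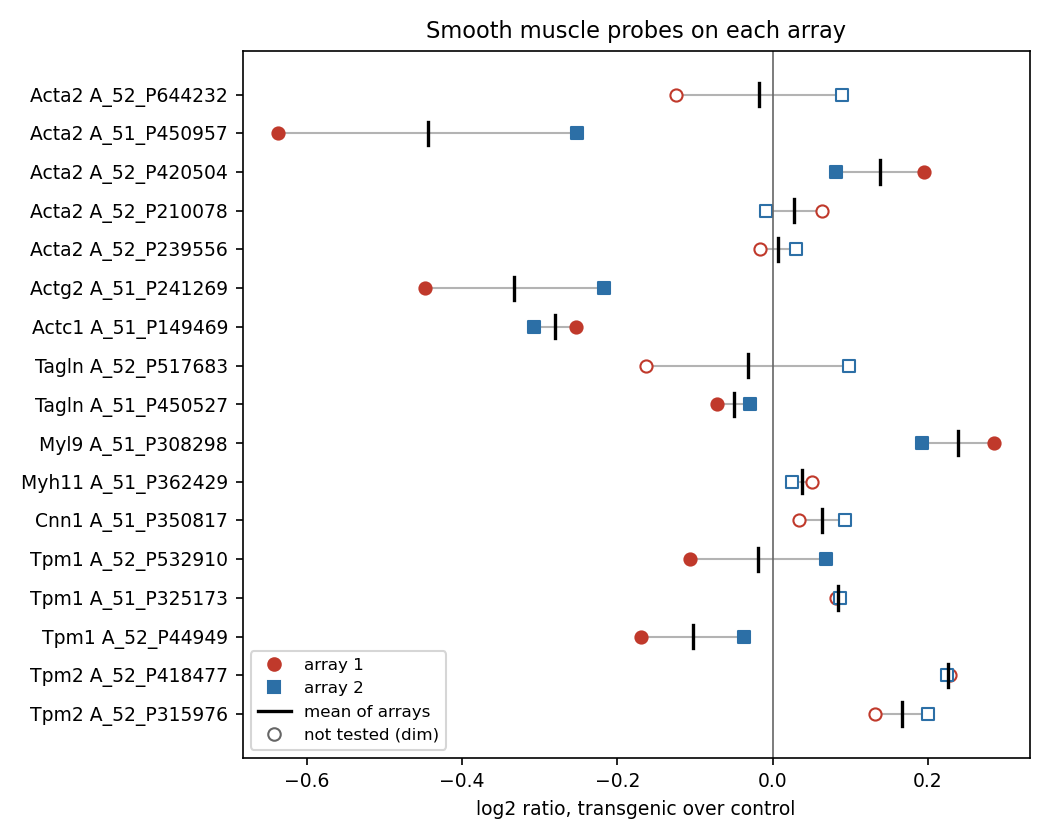
Log2 ratios of transgenic over control on the x axis for each of the 17 probes, with array 1 as circles, array 2 as squares and the mean as a bar; open symbols are probes too dim to test. The tested Acta2, Actg2 and Actc1 probes with means of -0.44, -0.33 and -0.28 lie left of 0 on both arrays, and the Myl9 probe at 0.24 lies right of it.

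Acta2 encodes the alpha actin of vascular smooth muscle, and its 5 probes differed. Probe A_51_P450957 (transcript NM_007392, mm8 chromosome 19, 34314502 to 34317756, minus strand) gave mean signals of 379 and 218 in the transgenic channels and 384 and 449 in the control channels of arrays 1 and 2. Both transgenic signals lay below both control signals, over local backgrounds of 35 to 36. It was the only 1 of the 8 probes without overlap, which 6.74% of all tested probes showed in that direction. Its log2 ratio was -0.64 on array 1 and -0.25 on array 2, a mean of -0.44 ± 0.27 (SD, n = 2 arrays). Only 0.253% of all tested probes had a lower mean ratio. limma's moderated test, which took each array as its own measurement, gave it an adjusted p of 0.0463, the only 1 of the 8 probes under 0.05. That test called 0.425% of all tested probes lower and 0.842% higher, and it covers only the spread between arrays. Because the arrays measured pooled RNA of whole thymus, fewer cells of a type and less RNA per cell cannot be told apart in this or any later ratio.

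The size on each array rested on the dye normalization. With median centring in place of loess the Acta2 probe A_51_P450957 was at -0.07 on array 1 and -0.93 on array 2, and with no normalization within the arrays at 0.01 and -1.03. The means, in which a constant dye effect cancels, were -0.50 and -0.51 under these settings.

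The second measurable Acta2 probe, A_52_P420504, lies on the same transcript at mm8 chromosome 19, 34307567 to 34307626, 11886 bases of genome from the most 5′ Acta2 probe, against 1756 bases for the first. It gave signals of 100 and 71.0 in the transgenic channels and 74.2 and 80.8 in the control channels, and the groups overlapped. Its log2 ratio was 0.20 on array 1 and 0.08 on array 2, a mean of 0.14 ± 0.08, and 87.5% of all tested probes were lower. After loess the probes of this 1 gene differed in sign on both arrays. With median centring the second probe was at 0.42 and -0.15 on arrays 1 and 2, so that both probes were below 0 on array 2, and with no normalization it was at 0.50 and -0.25, with the same sign as the first on each array. The first probe minus the second was -0.83 on array 1 and -0.33 on array 2, a mean of -0.58 ± 0.35. With no offset the second probe was at 0.30 and the first at -0.51.

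The other 3 Acta2 probes were well above background in 0 of 4 channels. Probe A_52_P210078 is assigned to the same transcript and lies 363 bases of genome beyond A_52_P420504. Its signals were 37.5 and 42.3 in the transgenic channels and 42.6 and 36.6 in the control channels. Probes A_52_P644232 and A_52_P239556 carry the cDNA clone accessions AK033744 and AK077294 and lie at the 5′ and 3′ ends of the probed stretch. The sequences of the probes were not used here, so whether the first probe also binds RNA of other actins, whose coding sequences are nearly identical, was not tested.

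**Figure D2:**
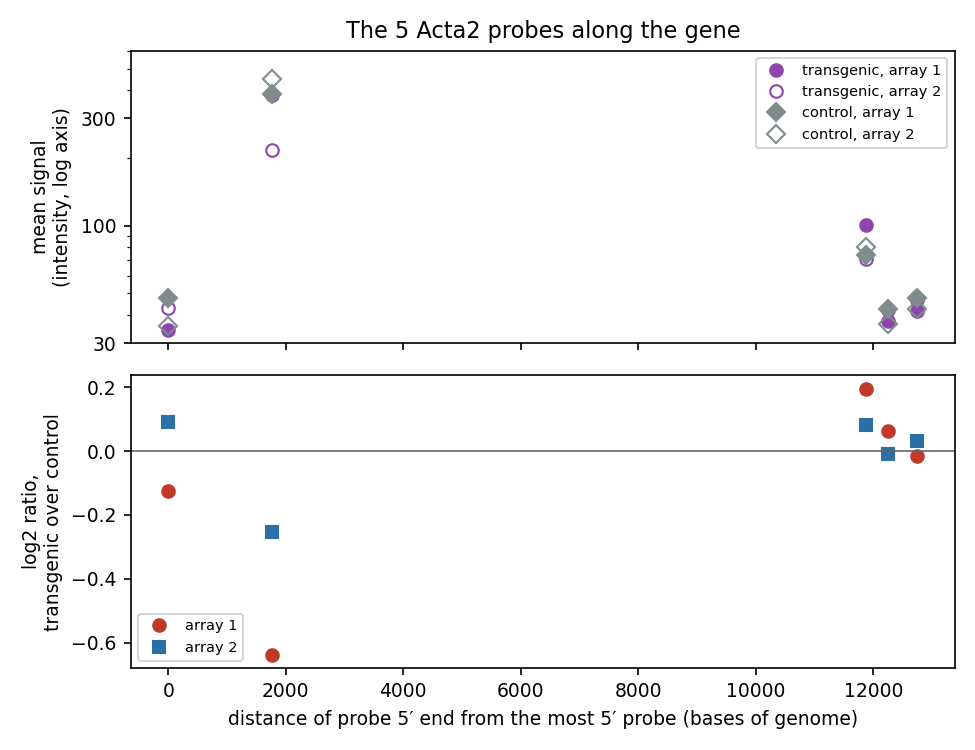
The 5 Acta2 probes by distance in bases of genome from the most 5′ probe (x axis), with the mean signal in intensity units on a log axis above, transgenic as circles and control as diamonds (array 2 open), and the log2 ratio of transgenic over control below. The probe at 1756 bases lies below 0 on both arrays and the probe at 11886 bases above 0 on both.

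Actg2 encodes the gamma actin of enteric smooth muscle and has 1 probe, A_51_P241269 (mm8 chromosome 6, 83488517 to 83488843, minus strand). Its signals were 300.1 and 199 in the transgenic channels and 276 and 391 in the control channels. The signals overlapped between genotypes, and the normalized ratio was lower in the transgenic pool on each array. The log2 ratio was -0.45 on array 1 and -0.22 on array 2, a mean of -0.33 ± 0.16, with 1.01% of all tested probes lower. Actc1 encodes the alpha actin of cardiac muscle, which other muscle cells also make. Its probe A_51_P149469 (mm8 chromosome 2, 113739716 to 113740639, minus strand) gave 194 and 123 in the transgenic channels and 167 and 241 in the control channels, again with overlap. The log2 ratio was -0.25 on array 1 and -0.31 on array 2, a mean of -0.28 ± 0.04, with 1.90% of all tested probes lower. limma's adjusted p was 0.114 for Actg2 and 0.18 for Actc1.

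Under median centring both probes, like that of Acta2, were lower on array 2 and near or above 0 on array 1, with Actg2 at 0.08 and -0.87 and Actc1 at 0.18 and -0.85 on arrays 1 and 2. In the authors' deposited table of software log ratios, turned here to transgenic over control, Acta2 A_51_P450957 was at -0.76 and -0.26, Actg2 at -0.58 and -0.21 and Actc1 at -0.40 and -0.42 on arrays 1 and 2. The deposited p-values of the same table, from the software's error model for a single array, were 0.000401 and 0.208 for that Acta2 probe, 0.0059 and 0.309 for Actg2 and 0.0555 and 0.0482 for Actc1.

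The cytoplasmic actins, which nearly every cell makes, differed between the genes. Actg1, the cytoplasmic gamma actin, had log2 ratios of -0.29 ± 0.18 and -0.49 ± 0.45 by its 2 probes A_51_P439803 and A_52_P72237, each below 0 on both arrays. Actb, the cytoplasmic beta actin, was at -0.02 ± 0.23 and -0.02 ± 0.13 by its 2 probes A_51_P251154 and A_51_P173760, each with opposite signs on the arrays. The skeletal alpha actin Acta1 was well above background in 0 of 4 channels, with signals of 37.5 and 40.9 in the transgenic channels and 46.1 and 34.2 in the control channels.

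Tagln encodes transgelin, also called SM22 alpha, an actin-binding protein that appears early in smooth muscle differentiation. Its probe A_51_P450527 (NM_011526, mm8 chromosome 9, 45681009 to 45681068) gave 783 and 432 in the transgenic channels and 497 and 815 in the control channels. The red channel was the higher on each array, and the genotypes overlapped. The log2 ratio was -0.07 on array 1 and -0.03 on array 2, a mean of -0.05 ± 0.03, and 35.3% of all tested probes were lower. This value lay well inside the spread of all tested probes. The second Tagln probe, A_52_P517683, is assigned to the same transcript and lies 819 bases of genome further 5′. It was well above background in 0 of 4 channels.

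Myl9 encodes the regulatory light chain that is phosphorylated to start contraction. Its probe A_51_P308298 (BC055439, mm8 chromosome 2, 156473006 to 156473065, plus strand) gave 104 and 76.2 in the transgenic channels and 70.9 and 81.2 in the control channels. The signals overlapped, while the ratio after loess was higher in the transgenic pool on both arrays. The log2 ratio was 0.29 on array 1 and 0.19 on array 2, a mean of 0.24 ± 0.07, and 96.2% of all tested probes were lower. With median centring it was 0.52 on array 1 and -0.07 on array 2, so that it was no longer higher on both. With no offset the mean was 0.52. In the authors' deposited table it was 0.65 and 0.52 on arrays 1 and 2, with deposited p-values of 0.00743 and 0.0298. With those ratios Myl9 did pass 0.5 on each array, but the share of all tested probes that did so with them was not counted. limma's adjusted p on the loess-normalized ratios was 0.282.

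**Figure D3:**
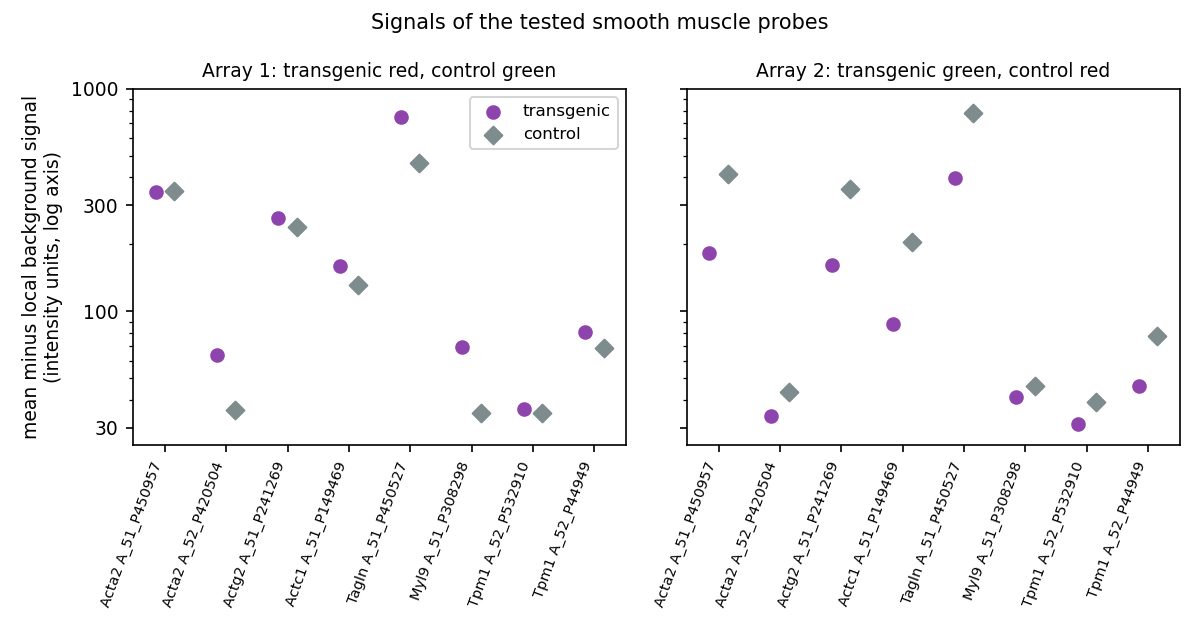
Mean signal minus local background (y axis, intensity units, log axis) of the 8 tested probes on each array, transgenic as circles left of control as diamonds. On array 1, where transgenic was red, 1 of the 8 transgenic mean signals was below its control, and on array 2, where transgenic was green, all 8 were.

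The tropomyosins wind along the actin filament and steady it. For Tpm1, probe A_52_P44949 (NM_024427, mm8 chromosome 9, 66822206 to 66822265) gave 119 and 83.4 in the transgenic channels and 107 and 115 in the control channels, with a log2 ratio of -0.17 on array 1 and -0.04 on array 2, a mean of -0.10 ± 0.09. Probe A_52_P532910 of the same transcript (66831962 to 66833032) gave 71.4 and 66.0 in the transgenic channels and 69.0 and 74.1 in the control channels. It had opposite signs on the arrays, with -0.11 and 0.07 and a mean of -0.02 ± 0.12. limma's adjusted p was 0.74 and 0.963 for these probes. The third Tpm1 probe, A_51_P325173, was well above background in 0 of 4 channels.

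Tpm2, the beta tropomyosin, was too dim to test. Probe A_52_P418477 (NM_009416, mm8 chromosome 4, 43540378 to 43540528) gave 74.5 and 60.0 in the transgenic channels and 59.0 and 52.1 in the control channels, and was well above background only in the transgenic channel of array 1. Both transgenic signals were above both control signals, over local backgrounds of 37 to 38. The share of all probes with that order of signals was not counted. In the authors' deposited table it was at 0.94 and 1.25 on arrays 1 and 2, with deposited p-values of 0.00399 and 0.00117. These ratios would pass the 2-fold rule if the probe were tested, but the share of all tested probes passing it with the deposited ratios was not counted. The loess-normalized ratios were 0.23 and 0.22 with the offset of 50 and 0.70 and 0.84 with none. The second Tpm2 probe, A_52_P315976, gave 52.2 and 51.7 in the transgenic channels and 48.3 and 42.7 in the control channels, well above background in 0 of 4, with deposited log ratios of 0.40 and 1.47.

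Myh11 and Cnn1 are the markers most restricted to smooth muscle among these genes. The Myh11 probe A_51_P362429 (mm8 chromosome 16, 14108708 to 14111632) gave 69.4 and 52.5 in the transgenic channels and 61.7 and 53.6 in the control channels, and was well above background only in the transgenic channel of array 1. The Cnn1 probe A_51_P350817 (mm8 chromosome 9, 21859016 to 21859075) gave 43.7 and 47.8 in the transgenic channels and 49.7 and 41.1 in the control channels, well above background in none. A difference in either gene was not detectable at these signals. Over all 9 untested probes the signals ran between 34.4 and 74.5 in the transgenic channels and between 35.7 and 61.7 in the control channels, over local backgrounds of 32 to 40 and 33 to 38.

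The positions given by the array design divide the probes. The longest stretch of genome a probe of 60 bases can cover without crossing an intron is its own length, and 7 of the 17 probes cover more. Of these 7, 4 were tested, with a median of -0.31, and 3 of them were lower on both arrays: the Acta2, Actg2 and Actc1 probes. The fourth was Tpm1 A_52_P532910. Of the 10 probes that cover 60 bases or fewer, 4 were tested, with a median of 0.04: Tagln A_51_P450527 and Tpm1 A_52_P44949 were lower on both arrays, and Acta2 A_52_P420504 and Myl9 higher on both. These directions hold after loess; with median centring none of these 4 kept its sign on both arrays, and of the 3 lower actin probes only that of Acta2 did. Of all tested probes, 29.4% were lower and 27.5% higher on both arrays. The shares among all probes that cross an intron, or do not, were not counted. The division was drawn with the ratios known and was not tested.

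Genes with related work were set beside the family by their brightest probe, over 9396 tested genes. Of all tested genes, 29.1% were below 0 on both arrays, 28.3% above 0 on both, 0.341% reached 0.5 on each array and 0.0319% also 2-fold. Of 20 other smooth muscle genes, 4 were tested, with 0 lower and 0 higher on both arrays and a median of 0.01. Among them were Synm (synemin, an intermediate filament protein) at 0.20 ± 0.38, Ppp1r12b (a subunit of myosin phosphatase) at 0.04 ± 0.06 and Csrp1 (a LIM protein of smooth muscle) at -0.02 ± 0.61. Of the 16 not tested, 15 were well above background in 0 channels, among them desmin (Des), Lmod1, Cald1 and Mylk, the kinase of the regulatory light chain.

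Of 15 regulators of smooth muscle transcription, 10 were tested, 5 lower and 2 higher on both arrays, with a median of -0.07. Rhoa, the GTPase that drives actin assembly, was at -0.17 ± 0.05 by its brightest probe and at 0.07 by another, and Smad3, a TGF-beta signal carrier, at -0.11 ± 0.08. Tgfbr2, a TGF-beta receptor, was at 0.12 ± 0.09 and Klf4, a repressor of the contractile genes, at 0.12 ± 0.12. Srf itself was at -0.06 ± 0.09, and Myocd, which encodes myocardin, was well above background in 0 channels.

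Of 14 non-muscle paralogues of the family, 10 were tested, 4 lower and 0 higher on both arrays, with a median of -0.07. Beside Actg1, Myl12b, a non-muscle regulatory light chain, was at -0.19 ± 0.18, while Myh9, a non-muscle myosin heavy chain, was at -0.02 ± 0.23 and Myl6, an essential light chain, at 0.01 ± 0.18. Of 36 striated muscle genes only 5 were tested, 0 lower and 2 higher on both arrays, with a median of 0.05. Tnni2 and Tnnt1, troponin subunits of skeletal fibres, were at 0.23 ± 0.03 and 0.06 ± 0.29, and Mylpf and Ryr1 at 0.04 ± 0.18 and 0.01 ± 0.15.

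Markers of other cells of the thymus lay on both sides of 0 beside the family, and their part in its ratios was not tested. Of 10 pericyte markers, 3 were tested: Notch3 at 0.24 ± 0.03 and Pdgfrb at 0.21 ± 0.15 were higher on both arrays, and Mcam at -0.10 ± 0.07 was lower on both. Their summed normalized signal was 369 and 344 in the transgenic pool and 325 and 317 in the control pool on arrays 1 and 2. This sum and those below include the offset of 50 for every probe, which brings the pools closer in proportion, most of all for dim probes. Cspg4, Abcc9, Higd1b and Vtn were well above background in 0 channels. Of 10 endothelial markers, 2 were tested. Their summed signal was 153 and 158 in the transgenic pool and 150 and 144 in the control pool. Pecam1 was at 0.04 ± 0.11, with opposite signs on the arrays. Flt1 was at 0.12 ± 0.02. It passed the filter only through the transgenic channels, so its direction, and its part in the summed signal, was favoured by the filter.

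Of 10 fibroblast markers, 5 were tested, with 4 higher and 0 lower on both arrays and a median of 0.12. Dcn (decorin) was at 0.52 ± 0.04, Lum (lumican) at 0.31 ± 0.14, Col3a1 at 0.09 ± 0.05 and Col1a1 at 0.07 ± 0.27. Their summed signal was 1101 and 924 in the transgenic pool and 870 and 810 in the control pool. Col1a1 had opposite signs on the arrays. The means of these mesenchymal genes lay above 0, as did those of the second Acta2 probe and Myl9. The means of the other 6 tested smooth muscle probes lay below 0, and a link between the 2 groups was not tested. Of 9 thymic epithelial markers, 8 were tested, with 5 higher and 0 lower on both arrays and a median of 0.19. Krt5 was at 0.68 ± 0.10 and Trp63 at 0.54 ± 0.27, genes of medullary epithelium, while the cortical genes Prss16 and Psmb11 were at 0.01 ± 0.20 and -0.05 ± 0.16. Their summed signal was 9010 and 7925 in the transgenic pool and 8371 and 6848 in the control pool, and Foxn1 was well above background in 0 channels.

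Of 10 immature thymocyte markers, 9 were tested, with 7 lower and 1 higher on both arrays and a median of -0.31. Ccr9 was at -0.53 ± 0.10 and Cd8a at -0.51 ± 0.00, while Cd3e was at -0.01 ± 0.10 and Cd4 at 0.02 ± 0.00 by its brightest probe, with another at -0.12. Their summed signal was 23823 and 20997 in the transgenic pool and 30422 and 27171 in the control pool, and Rag2 was well above background in 0 channels. Of 8 adipocyte markers, 5 were tested. Fabp4, a fatty acid carrier, and Lpl, the lipoprotein lipase, were well above background in 4 of 4 channels and were at 0.78 ± 0.04 and 0.38 ± 0.03. Cfd, Car3 and Cidec passed the filter only through the transgenic channels, so they had to be higher. They were at least 2.97-fold, 1.58-fold and 1.23-fold higher in the transgenic pool. Each bound sets the transgenic mean over both arrays against the higher of the probe's own control level and the lowest control level well above background. The summed signal of the 5 was 1762 and 1533 in the transgenic pool and 1020 and 871 in the control pool. It includes Cfd, Car3 and Cidec, so part of its difference was set by the filter. Plin1 and Retn were well above background in 0 channels.

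**Figure D4:**
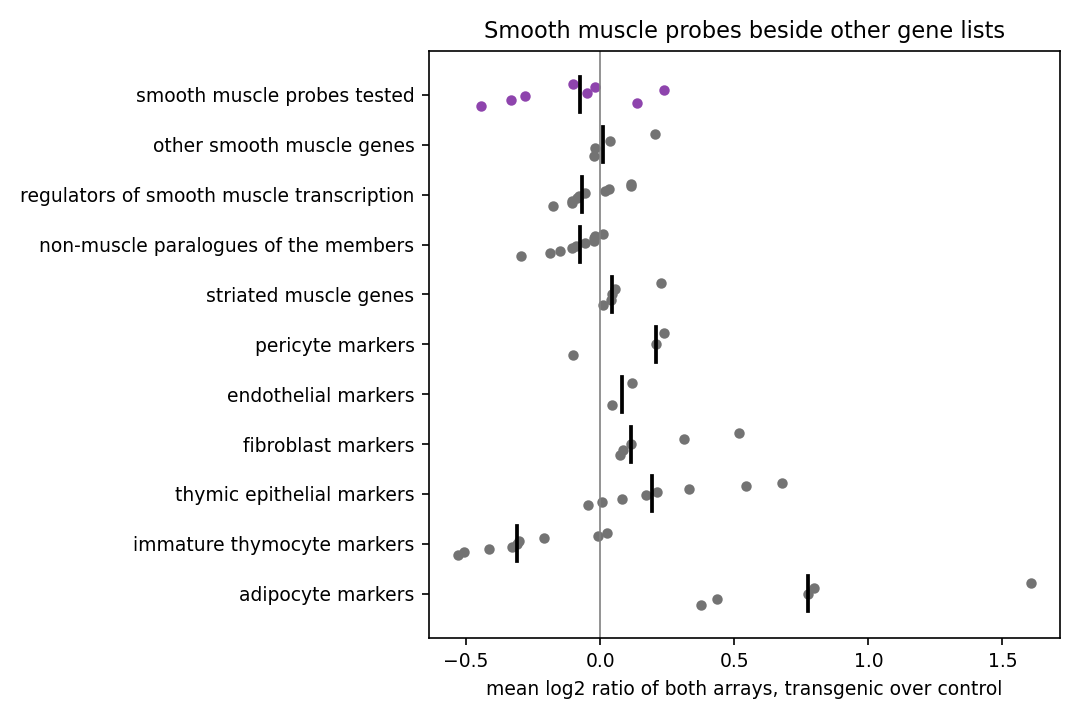
Mean log2 ratio of transgenic over control over both arrays (x axis) for the 8 tested smooth muscle probes and for the tested genes of 10 lists, each point a probe or gene and each bar the median. The smooth muscle probes have a median of -0.08. The striated muscle, endothelial, fibroblast, thymic epithelial and adipocyte lists lie to the right of 0, apart from Psmb11 at -0.05. Flt1, Cfd, Car3 and Cidec passed the filter only through the transgenic channels.

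The direction of the mean ratio of 7 of the 8 tested probes did not depend on how the signals were processed. Tpm1 A_52_P532910, at -0.02, changed sign with array 2 alone and without background correction. Myl9 and Acta2 A_52_P420504 moved most, to 0.58 and 0.34 with the software's processed signals.

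**Figure D5:**
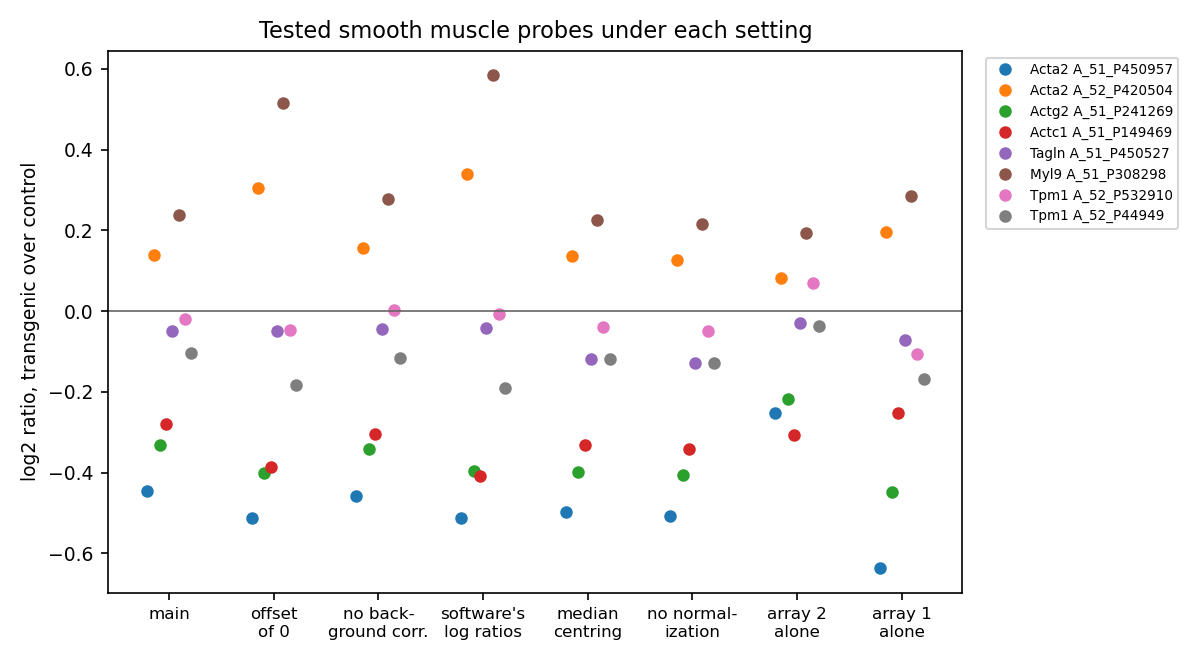
Log2 ratio of transgenic over control (y axis) of the 8 tested probes under each processing setting (x axis); the first 6 settings are means of both arrays and the last 2 are single arrays. Acta2 A_51_P450957, Actg2 and Actc1 stay below 0 and Acta2 A_52_P420504 and Myl9 above 0 in every column.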

How the data were processed

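RNA of thymus from 4 pooled mice per genotype was measured on 2 two-colour Agilent arrays with exchanged dyes, which the labels call replicates. Whether they hold separate pools is not stated in the labels, so they were counted as 1 sample per genotype. The deposited intensity values are mean and local background signals per spot, written by the scanner software Feature Extraction (version 9.5.1.1) with probe positions on mm8, per the file headers. The deposited LogRatio is the log10 ratio of the red to the green processed signal, and its deposited p-value comes from the software's error model, per the file headers. The LogRatio gave no difference between red and green at 56.5% of spots on array 1 and 57.3% on array 2. The authors' deposited series table holds the log10 ratio of the processed signals, not turned for the dye swap. It matched the LogRatio at the tested smooth muscle probes, but not at all dim probes. At Cnn1 A_51_P350817 the LogRatio gave no difference on either array. The series table gave log2 ratios of transgenic over control of -0.36 and 0.40 there on arrays 1 and 2.

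Mean signals were background-corrected by normexp with an offset of 50 and normalized by loess within each array (limma 3.58.1, R 4.3.3). Control spots had weight 0 and outlier spots, 46 on array 1 and 37 on array 2, were left out. Replicate spots were averaged, and the sign of array 2 was turned to read transgenic over control. All 17 probes kept their symbol when looked up in RefSeq. Where RefSeq lacked a probe's accession, the design's own gene name was used, so for such probes the symbol could not differ. Exon and UTR positions of the probes were not analysed here. The number of arrays and the signal over background limit the precision. The members and gene lists were chosen with earlier results of these data known. From each list the 2 highest and 2 lowest tested genes are named, apart from 1 gene not reported here; further genes named for their role were chosen after their values were seen. Alternatives were offset 0, no background correction, the software's log ratios, the series table, median centring, no filter on dim probes, each array alone and limma's moderated test; no normalization was added after seeing the data.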

Additional observations from a re-analysis of the deposited data

How the results depend on the processing

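The median of the tested smooth muscle probes kept its sign under every setting tried except without the filter on dim probes, where it was 0.0069 over all 17 probes. The count of probes at 0.5 or more on each array, 0, became 1 (Myl9) with the software's log ratios and with the series table, ranged from 0 to 1 with each array alone (Acta2 A_51_P450957 on array 1), and limma's moderated test, a different rule, called 1. The count at 2-fold stayed 0 of the 8 tested probes in the settings tried; the untested Tpm2 probe A_52_P418477 would pass it with the software's log ratios. The 5 probes lower on both arrays became 1 with median centring (Acta2 A_51_P450957) and 0 with no normalization, and the 2 higher on both became 0, 0 and, without the filter, 7; red was the brighter dye before normalization, and the cause of the change under median centring was not tested. With each array alone the count lower ranged from 5 to 6 and the count higher from 2 to 3. Apart from limma's test, the share of all tested probes past these rules was counted only under the main setting. With the mean over all tested probes of a gene the median over genes was -0.11. Of 40 values of single tested probes under 5 settings, single arrays and the series table left aside, 10 moved by more than the SD between arrays and 30 did not. With 1 pair of pools the SD covers no variation between mice. No paired analysis was possible because both arrays belong to 1 group of ratios, each of which already pairs the pools.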
